A study of Mus musculus with 2 samples.

Results

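The genes described here are 10 genes of macrophages and of the growth factor axis that maintains them, out of 43346 gene rows in the tables of an embryonic mouse limb. They were taken by name: the ligands Csf1 and Il34, their receptor Csf1r, the transcription factor Spi1, the complement subunits C1qa, C1qb and C1qc, the signalling adaptor Tyrobp, and the surface proteins Adgre1 and Mrc1. All 10 names matched exactly 1 row in each library. The tissue was whole limb of C57BL/6J embryos at embryonic day 14.5, sequenced as strand-specific read pairs from RNA with a poly(A) tail and a size above 200 nucleotides. Both libraries belong to 1 group without treatment or mutation, each made from pooled male and female littermates (biological replicates 1 and 2). The labels name 2 biosamples but the same donor identifier, and do not say whether the litters or the limbs taken differed, so each SD and interval given covers the spread of these 2 libraries alone and may reflect technical differences. No cells were sorted, so each value is an average over all cells of the limb, and fewer macrophages and less RNA per macrophage cannot be told apart.

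Macrophages settle in the limb before bone marrow exists and clear dying cells, including those between the digits. Their survival depends on the receptor tyrosine kinase Csf1r, which binds Csf1, a factor made by many mesenchymal cells, or Il34, known as a product of keratinocytes and neurons. The transcription factor Spi1 (PU.1) sets up the myeloid programme and binds the promoter regions of many macrophage genes, Csf1r among them. Tyrobp (DAP12) passes on signals of receptors that have no signalling motif of their own, C1q opens the classical complement pathway, Adgre1 encodes an adhesion receptor used as a marker of mouse macrophages, and Mrc1 encodes the mannose receptor CD206.

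Gene rows held 110172148 estimated counts in replicate 1 and 103363136 in replicate 2, of which 20566 and 20484 belonged to the 10 genes. Mean fragment length, read from annotated and effective transcript lengths, was 200.0 nucleotides in replicate 1 and 227 in replicate 2. The libraries differed by far more than sampling noise, with a chi-square per degree of freedom of 127 among 20396 genes, and were counted as separate samples. The upper limit set by an undetected gene, 3 counts, was 0.0272 CPM (counts over library size, with no length scaling) in replicate 1 and 0.0290 CPM in replicate 2, which covers counting error only.

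All 10 genes had at least 1 TPM in both libraries, where TPM is an abundance adjusted for the length of the transcripts and the size of the library. Over the whole table this held for 33.8% of gene rows and for 62.8% of protein-coding genes. The median of the 10 mean levels was 13.9 TPM, against 0.0350 TPM over all gene rows and 5.84 TPM over protein-coding genes. By mean level the order was Tyrobp, C1qb, C1qc, C1qa, Csf1r, Csf1, Spi1, Mrc1, Adgre1 and Il34. The estimated counts of all 10 were whole numbers in both libraries, although a whole count does not show that no read was shared with another gene.

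**Figure D1:**
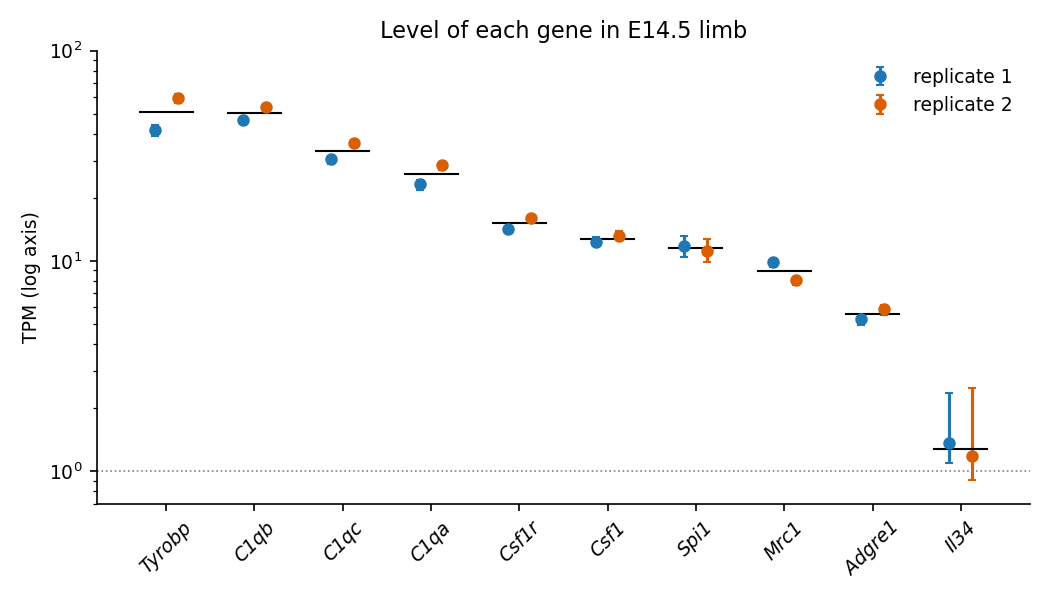
TPM of each gene (log axis) in replicates 1 and 2 of the limb, as points with the credibility bounds deposited by the authors, and the mean as a black line. Tyrobp and C1qb lie highest near 51 TPM, Il34 lies lowest at 1.27 TPM with the widest bounds, and the dotted line marks 1 TPM.

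Levels of 2 genes within the tissue were compared for 19 pairs on the log2(TPM + 1) scale, with 95% intervals from a limma fit across 15055 genes. An interval that leaves out 0 is called a difference beyond the replicate spread, which held for 12 pairs. Intervals were not adjusted for the number of pairs. Widened for 19 pairs, 7 still left out 0: Csf1 over Il34, Csf1r over Il34, Adgre1 over Il34, Tyrobp over Trem2, Spi1 over Irf8, and C1qa over C1ra and over C1s1. These intervals take the errors of both genes as independent, although both came from the same libraries. With the library as a block, that is with differences taken within each library and 1 degree of freedom, 7 of the 19 intervals left out 0, of which 6 were among the 12. The blocked interval is given wherever it changes the call, and it did so for Adgre1 over Il34, 1.53 on the log2 scale, where it ran from -0.06 to 3.13. Of the 9 pairs of neighbours in the order of levels, 5 did not differ beyond the spread in the limma fit: Tyrobp and C1qb, C1qc and C1qa, Csf1r and Csf1, Csf1 and Spi1, and Spi1 and Mrc1.

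**Figure D2:**
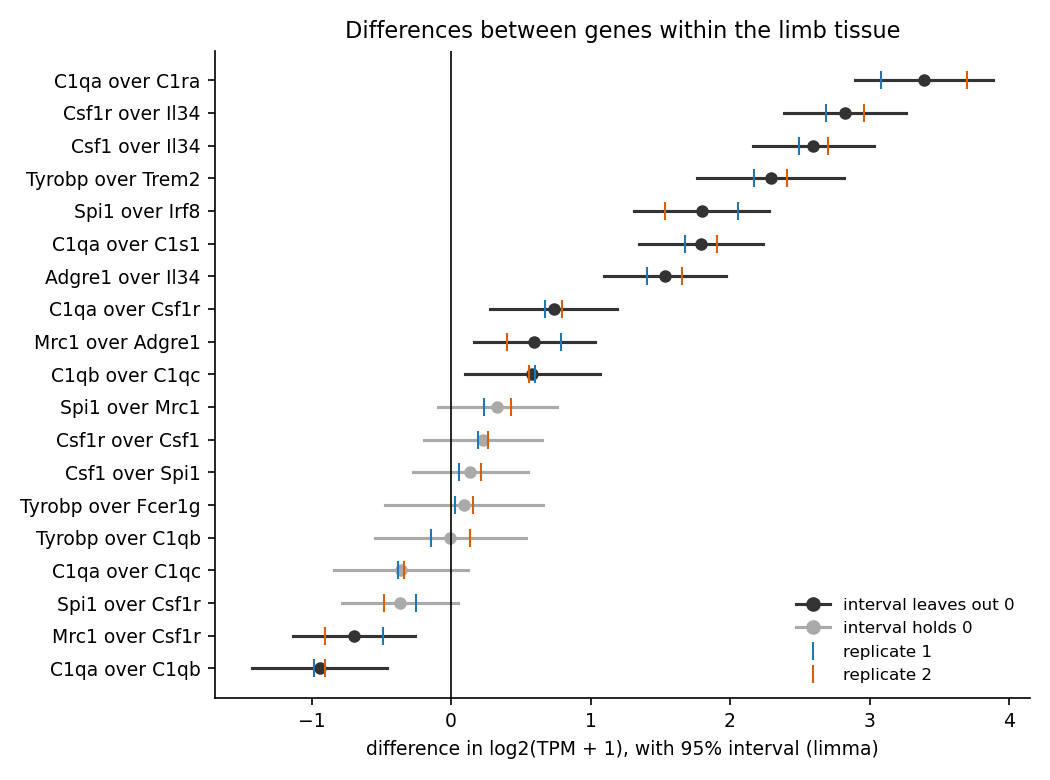
Difference in log2(TPM + 1) between the genes of each of 19 pairs, as a point with its 95% interval from limma, and the difference in each replicate as a coloured tick. The intervals take both genes as independent. Dark intervals leave out 0 (12 pairs) and grey ones hold it (7 pairs).

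Of the ligands, Csf1 was well above Il34. Csf1 (ENSMUSG00000014599.6, chromosome 3, 107741048 to 107760469, mm10) had 12.3 TPM in replicate 1 and 13.2 in replicate 2, with 3198 and 3102 counts, and both libraries gave nearly the same level. Il34 (ENSMUSG00000031750.11, chromosome 8, 110741829 to 110805924) had 1.36 and 1.18 TPM, or 0.917 and 0.716 CPM, the lowest of the 10 genes in both libraries. The means were 12.7 ± 0.643 TPM for Csf1 and 1.27 ± 0.127 TPM for Il34 (SD, n = 2), at the 60.7th and 37.7th percentile of protein-coding genes. The log2 difference of Csf1 over Il34 was 2.60 (95% interval 2.16 to 3.03, limma), or 6.05-fold on that scale, and the plain TPM ratio was 9.02 in replicate 1 and 11.2 in replicate 2.

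What was read as Il34 lay partly on short noncoding models. The protein-coding transcript Il34-201 held 96.8 and 63.0 counts in replicates 1 and 2, or 95.8% and 85.2% of the gene's counts, but its own level was 0.850 and 0.610 TPM, under 1 TPM in both libraries. The rest of the gene's level came from processed transcripts: Il34-202, 309 nucleotides long, held 37.3% and 19.5% of the TPM on 4.23 and 1.35 counts, and Il34-205 held 0% and 20.8%. The credibility bounds of the gene, deposited by the authors without naming their level, ran from 1.09 to 2.35 TPM in replicate 1 and from 0.910 to 2.48 TPM in replicate 2. The annotated noncoding genes Gm15894 and Gm15895 overlap Il34 on the opposite strand, and it is not stated whether counting used the strand.

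Csf1 was present in both of its main coding forms. The long form is made as a precursor that is cut and released from the cell, whereas the short form lacks the stretch with the cleavage sites and the attachment site of the glycosaminoglycan chain and stays in the membrane. Transcripts with the long coding sequence of 552 codons, Csf1-201 and Csf1-203, together held 67.2% and 64.3% of the Csf1 level in replicates 1 and 2. Csf1-202, with 257 codons, held 30.2% and 32.5%. In TPM the long form had 8.24 and 8.47 and the short form 3.70 and 4.29, so the long form was 2.23 and 1.97 times the short one. Both libraries thus gave the long form about the same lead, 65.7% ± 2.05 against 31.3% ± 1.66 (SD, n = 2). The forms part at the start of exon 6, on the minus strand of chromosome 3. There Csf1-201 uses an exon of 1016 nucleotides (107748154 to 107749169), and Csf1-202 begins the same exon 885 nucleotides further on (107748154 to 107748284), which leaves out 295 codons in frame. The 24 bases before and 36 bases after the junction of exons 5 and 6 are shown because reads over it tell the forms apart, with exon 6 in capitals:
Csf1-201: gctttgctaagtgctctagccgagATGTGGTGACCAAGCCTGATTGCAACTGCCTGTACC
Csf1-202: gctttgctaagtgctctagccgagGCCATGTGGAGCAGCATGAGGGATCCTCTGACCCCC
Of the 5 other Csf1 models, Csf1-203 shares the long coding sequence, Csf1-206 retains an intron at 1.53% and 0.740%, and Csf1-204, Csf1-205 and Csf1-207 each stayed under 2% in both libraries.

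**Figure D3:**
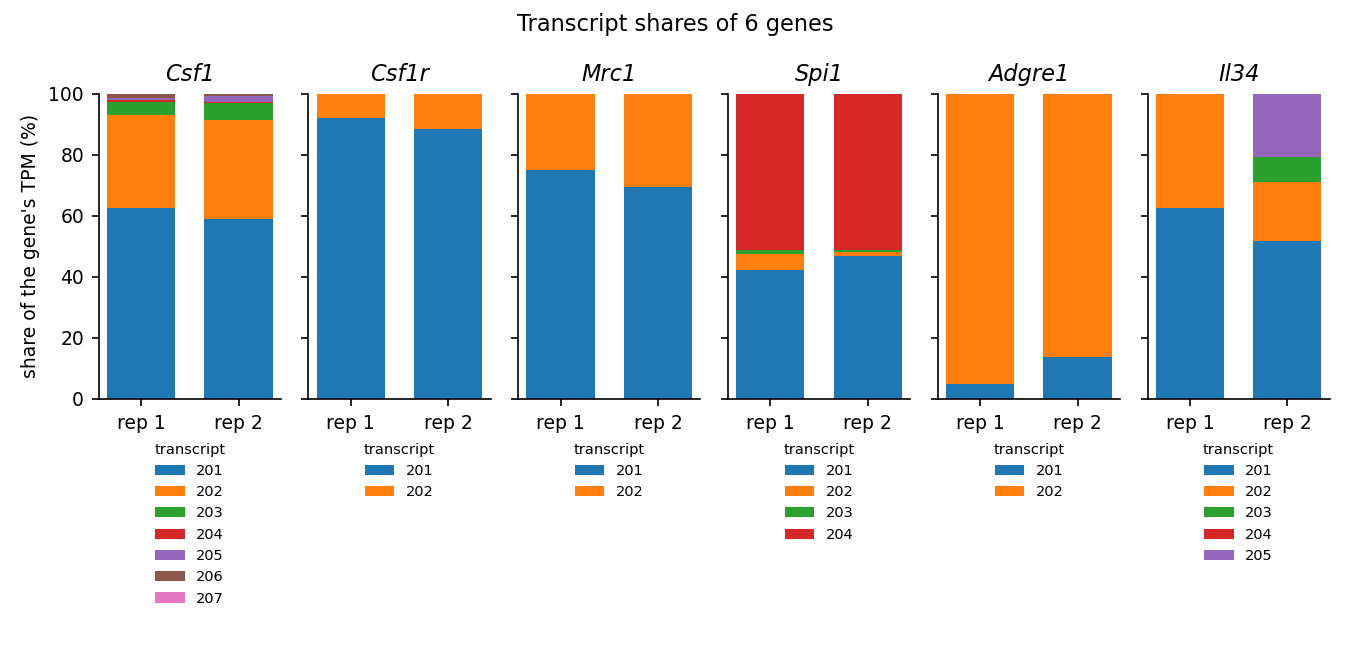
Share of each annotated transcript in the TPM of its gene (percent), for 6 genes in replicates 1 and 2, with transcripts named by the number after the hyphen. Csf1 is split mainly between Csf1-201 and Csf1-202 in both libraries, Spi1 between Spi1-201 and Spi1-204, and Il34 differs most between the libraries.

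The receptor Csf1r stood beside its main ligand. Csf1r (ENSMUSG00000024621.11) had 14.2 TPM in replicate 1 and 16.0 in replicate 2, with 3977 and 4173 counts, the most counts of the 10 genes in both libraries. Its mean of 15.1 ± 1.27 TPM (SD, n = 2) lay at the 63.5th percentile of protein-coding genes. In the single libraries Csf1r was 1.16 and 1.21 times Csf1 in TPM, and their log2 difference of 0.23 was within the spread (95% interval -0.19 to 0.65, limma). Against Il34 the receptor was higher by 2.82 on the log2 scale (95% interval 2.38 to 3.26, limma). Its transcripts Csf1r-201 and Csf1r-202 share a coding length of 2931 nucleotides, and Csf1r-201 held 92.2% and 88.5% of the level in replicates 1 and 2. The gene Hmgxb3 overlaps the end of Csf1r on the opposite strand.

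Spi1, the master regulator of the myeloid lineage, followed Csf1r and Csf1 in the order of TPM. Spi1 (ENSMUSG00000002111.8, chromosome 2, 91082390 to 91115756) had 11.7 and 11.2 TPM in replicates 1 and 2, from 858 and 792 counts, with a mean of 11.5 ± 0.382 TPM (SD, n = 2). The log2 difference of Spi1 over Csf1r was -0.37 (95% interval -0.78 to 0.05, limma) and that of Csf1 over Spi1 was 0.14 (95% interval -0.27 to 0.55, limma). In CPM, with no length scaling, Spi1 over Csf1r was -2.17 and Csf1 over Spi1 was 1.81, both beyond the spread. Spi1 was above Irf8, a factor that acts with it in monocytes and dendritic cells, by 1.80 on the log2 scale (95% interval 1.31 to 2.28, limma), although the blocked interval, -1.52 to 5.12, held 0. Irf8 itself had 2.06 and 3.21 TPM in replicates 1 and 2.

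The level of Spi1 rests in part on a short transcript model. The full coding transcript Spi1-201, of 2034 nucleotides and 272 codons, took 79.3% and 83.3% of the counts in replicates 1 and 2 but 42.1% and 46.7% of the TPM. Spi1-204, a model of 544 nucleotides with a coding part of 143 codons, took 18.1% and 16.1% of the counts and 51.2% of the TPM in each library. By Spi1-201 alone the level was 4.94 and 5.23 TPM. Of the 10 genes, 4 had at least 2 transcripts with a mean share of 10% or more: Csf1, Spi1, Mrc1 and Il34.

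The C1q subunits were among the highest of the 10 genes in TPM and kept their order in both libraries. They form the recognition part of the first complement component, with chains A, B and C in equal number, and tissue macrophages are the main source. C1qb (ENSMUSG00000036905.8) had 46.8 TPM in replicate 1 and 54.2 in replicate 2. C1qc (ENSMUSG00000036896.5) followed with 30.5 and 36.4 TPM, and C1qa (ENSMUSG00000036887.5) with 23.2 and 28.6 TPM. Every subunit was higher in replicate 2, and no value of one subunit overlapped those of another. The means were 50.5 ± 5.27, 33.4 ± 4.21 and 25.9 ± 3.80 TPM (SD, n = 2) for C1qb, C1qc and C1qa. In counts the order was the same: 3118 and 3262 for C1qb, 2290 and 2481 for C1qc, and 1462 and 1622 for C1qa.

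Ratios between the subunits varied less than the levels did. C1qb was 2.02 and 1.90 times C1qa in replicates 1 and 2, and C1qc was 1.31 and 1.28 times C1qa. The log2 difference of C1qa over C1qb was -0.94 (95% interval -1.43 to -0.46, limma) and that of C1qb over C1qc 0.58 (95% interval 0.10 to 1.06, limma). C1qa over C1qc was -0.36, with an interval that held 0 (95% interval -0.84 to 0.12, limma). Within the libraries, however, the log2 differences of C1qa over C1qc were -0.38 and -0.34, nearly the same, and the blocked interval, -0.61 to -0.11, left out 0. In CPM, which take no account of length, C1qa over C1qc was -0.60 and beyond the spread, and C1qb over C1qc was 0.40 and within it. C1qa over Csf1r was 0.73 on the log2 scale (95% interval 0.28 to 1.19, limma), but the blocked interval, -0.08 to 1.55, held 0 and the direction turned in CPM, at -1.34.

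The enzymes that C1q activates were lower than C1q in this tissue. C1ra, a protease of the same complex, had 1.85 and 1.28 TPM in replicates 1 and 2, and C1s1, its substrate and partner, had 6.55 and 6.88. C1qa exceeded C1ra by 3.39 (95% interval 2.90 to 3.88, limma) and C1s1 by 1.79 (95% interval 1.35 to 2.24, limma) on the log2 scale. The blocked interval of C1qa over C1ra, -0.49 to 7.27, held 0. Mice carry near copies of the C1r and C1s genes, so reads of these 2 may be divided with them.

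The subunit genes lie in a row on the minus strand of chromosome 4 within 18675 bases: C1qb at 136880129 to 136886187, C1qc at 136889804 to 136893065 and C1qa at 136895917 to 136898803. Gaps of 3616 bases between C1qb and C1qc and of 2851 bases between C1qc and C1qa separate them. Promoter windows from RefSeq (GRCm38.p6, the assembly also called mm10), from 250 bases before to 50 bases after a start site, matched 4 of the 10 genes: C1qb, C1qc, Mrc1 and Csf1. They were searched on both strands for GAGGAA, the core of the purine-rich box that Spi1 binds, which 28.3% of 32851 windows hold, and for GAGGAAGT, which contains it and which 3.20% hold. C1qb had 1 match to the shorter motif, C1qc had 1 match that extended to the longer motif, and Csf1 had none. Mrc1 had 3 matches to the shorter motif, and 3 or more are held by 0.685% of windows. A match is a run of letters, not a measured binding site. Shown are the windows with a match, those of C1qb, C1qc and Mrc1, each 5′ to 3′ along its gene. Capitals mark GAGGAA or its reverse complement TTCCTC:
C1qb, chr4:136886151-136886450, minus strand: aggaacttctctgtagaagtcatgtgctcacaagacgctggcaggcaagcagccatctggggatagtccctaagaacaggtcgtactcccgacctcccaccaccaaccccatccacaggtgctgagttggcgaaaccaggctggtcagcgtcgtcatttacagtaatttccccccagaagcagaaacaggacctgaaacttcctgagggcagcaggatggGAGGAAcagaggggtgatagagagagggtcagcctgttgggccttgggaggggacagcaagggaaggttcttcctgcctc
C1qc, chr4:136892865-136893164, minus strand: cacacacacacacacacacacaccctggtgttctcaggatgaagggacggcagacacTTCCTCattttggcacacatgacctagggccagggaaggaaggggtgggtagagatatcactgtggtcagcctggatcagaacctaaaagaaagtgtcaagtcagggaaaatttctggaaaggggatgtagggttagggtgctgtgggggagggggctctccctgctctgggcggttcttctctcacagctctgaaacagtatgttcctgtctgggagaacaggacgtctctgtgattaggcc
Mrc1, chr2:14229164-14229463, plus strand: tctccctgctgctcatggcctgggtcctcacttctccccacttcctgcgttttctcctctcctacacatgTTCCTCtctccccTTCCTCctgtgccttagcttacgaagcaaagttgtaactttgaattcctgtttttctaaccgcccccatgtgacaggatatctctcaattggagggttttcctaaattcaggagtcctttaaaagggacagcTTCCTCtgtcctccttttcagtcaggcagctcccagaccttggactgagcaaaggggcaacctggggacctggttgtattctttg

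Tyrobp was the highest of the 10 genes by mean TPM and the most variable. In CPM, with no length scaling, it was below C1qb, at -1.25 on the log2 scale and beyond the spread. Tyrobp (ENSMUSG00000030579.9, chromosome 7, 30413760 to 30417585) had 42.2 TPM in replicate 1 and 59.7 in replicate 2, from 1154 and 1409 counts. Its mean of 50.9 ± 12.4 TPM (SD, n = 2) did not differ from that of C1qb beyond the spread (log2 difference -0.0046, 95% interval -0.55 to 0.54, limma), and their order differed between the libraries. The table holds 1 Tyrobp transcript, of 564 nucleotides, and its effective length was 365 nucleotides in replicate 1 and 338 in replicate 2. The TPM ratio between the libraries therefore also holds the difference in fragment length: it was 0.50 on the log2 scale in TPM and 0.40 in TMM-scaled counts. The only transcript encodes the tyrosine motif (ITAM) that recruits the kinase Syk, codons 92 to 106 of 114, shown from the GENCODE M21 transcript with its 2 tyrosine and 2 leucine codons in capitals:
Tyrobp-201: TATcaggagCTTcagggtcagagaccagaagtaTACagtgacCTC

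Receptors and partners of Tyrobp were uneven. Fcer1g, the related adaptor of Fc receptors, had 41.3 and 53.5 TPM in replicates 1 and 2, and its level did not differ from Tyrobp beyond the spread (log2 difference of Tyrobp over Fcer1g 0.09, 95% interval -0.47 to 0.66, limma). Trem2, a lipid receptor that signals through Tyrobp, had 8.57 and 10.4 TPM, and Tyrobp exceeded it by 2.29 on the log2 scale (95% interval 1.77 to 2.82, limma). Syk and Plcg2, which act downstream, had 2.77 and 2.46 and 2.95 and 3.10 TPM. Of the 16 listed partners and kinases 6 reached 1 TPM in both libraries, beside 62.8% of protein-coding genes, and 9 were under 1 TPM in both.

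The surface proteins used to recognise macrophages were lower in TPM than the complement and adaptor genes. In CPM, with no length scaling, this did not hold in full for Mrc1 or for Adgre1. Mrc1 had 29.1 and 22.6 CPM in replicates 1 and 2. C1qa had 13.3 and 15.7 CPM and Tyrobp 10.5 and 13.6. C1qb, at 28.3 and 31.6, was above Mrc1 in replicate 2 only, as was C1qc. Adgre1 had 10.9 and 11.9 CPM and was above Tyrobp in replicate 1 only. Mrc1 (ENSMUSG00000026712.3, chromosome 2, 14229392 to 14332057) had 9.83 TPM in replicate 1 and 8.08 in replicate 2, from 3208 and 2336 counts. Adgre1 (ENSMUSG00000004730.10, chromosome 17, 57358691 to 57483527) had 5.26 and 5.88 TPM from 1200 and 1233 counts. The libraries went opposite ways, so that Mrc1 was 1.87 times Adgre1 in replicate 1 and 1.37 times in replicate 2. The means were 8.96 ± 1.24 TPM for Mrc1 and 5.57 ± 0.438 TPM for Adgre1 (SD, n = 2). The log2 difference of Mrc1 over Adgre1 was 0.60 (95% interval 0.16 to 1.03, limma), but the blocked interval, -1.89 to 3.08, held 0. Mrc1 over Csf1r was -0.70 (95% interval -1.13 to -0.26, limma), and here too the blocked interval, -3.34 to 1.95, held 0.

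The lower level of Mrc1 in replicate 2 lay in its coding transcript. Mrc1-201, of 5374 nucleotides, had 7.38 TPM in replicate 1 and 5.62 in replicate 2, so that by this transcript alone Mrc1 was above the Adgre1 gene level in replicate 1 and below it in replicate 2. Mrc1-202, a model of 2069 nucleotides with a retained intron, had 2.45 and 2.46 TPM, or 25.0% and 30.5% of the gene. Adgre1 was carried mainly by Adgre1-202, at 95.2% and 86.3%, while Adgre1-201, of equal coding length, had 4.83% and 13.7%.

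Of the 10 genes, 0 differed between the libraries by more than 1.5-fold in deposited TPM. Among all 15055 genes whose mean reached 1 TPM, 11.6% did, 4.07% higher and 7.55% lower in replicate 2. In deposited TPM 7 of the 10 genes were higher in replicate 2 and 3 were lower, against 52.8% and 46.9% of those 15055 genes, and the split of the 10 was not tested. The log2 ratio of replicate 2 over replicate 1 ran from -0.28 for Mrc1 through -0.20 for Il34 and -0.07 for Spi1 to 0.30 for C1qa and 0.50 for Tyrobp. The 3 subunits of C1q fell close together at 0.30, 0.21 and 0.26 for C1qa, C1qb and C1qc. Csf1, Csf1r and Adgre1 lay between them and 0, at 0.10, 0.17 and 0.16. The median of the 10 was 0.17, against 0.02 over all genes at or above 1 TPM. With TMM-scaled counts Spi1 had a log2 ratio of -0.0016, and the sign of every one of the 10 was the same.

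**Figure D4:**
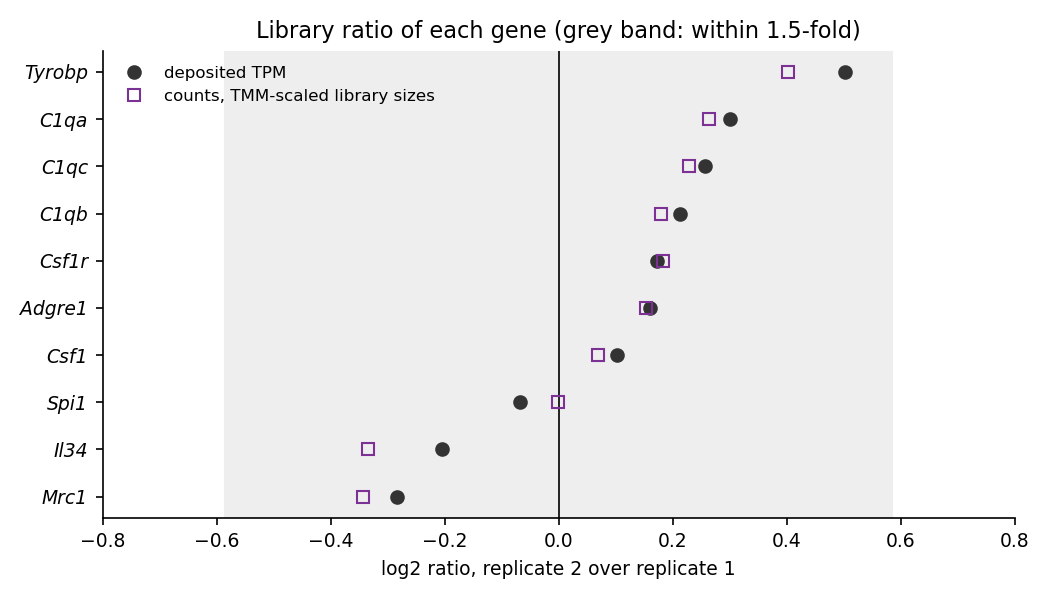
Log2 ratio of replicate 2 over replicate 1 for each of the 10 genes, from deposited TPM (dots) and from counts over TMM-scaled library sizes (squares). All dots and squares lie inside the grey band of 1.5-fold, with Mrc1 lowest and Tyrobp highest by TPM.

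Other macrophage genes were measured beside this gene group. They were listed with earlier results of these data known, so the label of the group was not tested by them. Of 30 further macrophage genes 26 reached 1 TPM in both libraries, here called detected. Their list had a median of 9.25 TPM and was led by the oxidase subunit Cyba, the scavenger receptor Stab1, Fcer1g and the lysosomal protein Laptm5 at 95.4 ± 11.2, 61.8 ± 6.92, 47.4 ± 8.63 and 41.3 ± 5.14 TPM (SD, n = 2). Siglec1, Cybb, Timd4 and Cd163 were under 1 TPM in both libraries, with Cd163 at 0.0200 TPM in each. Their library ratios went both ways, 13 of 26 higher in replicate 2, with a median log2 ratio of -0.02. Of the genes that mark resident macrophages of other organs or dendritic cells, 7 of 13 were detected, beside the same 62.8%. The highest were Tmem119, Sall1, Cd74 and H2-Ab1 at 83.9 ± 17.6, 12.9 ± 2.37, 5.29 ± 0.495 and 4.12 ± 0.445 TPM (SD, n = 2). Microglia share Tmem119 and Sall1 with osteoblasts and with limb mesenchyme.

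The shares of listed genes detected around the receptor and the factor stand beside 62.8% of all protein-coding genes. A list of 17 genes held other receptors of Il34, signalling proteins downstream of Csf1r and receptors of other cytokines, such as Csf2ra, and 17 of 17 were detected. Levels in it ran from 1.32 to 245 TPM, with a median of 8.04 TPM. The highest were Sdc1, a proteoglycan that also binds Il34, at 245 ± 32.9 TPM, and Csf2ra, Grb2 and Sirpa at 63.2 ± 9.69, 51.2 ± 0.00707 and 32.9 ± 0.0141 TPM (SD, n = 2). Most of these are made by many cell types. Of 20 partners of Spi1 and other myeloid factors 15 were detected, led by Klf4, Cebpb, Cebpa and Batf3 at 50.4, 27.0, 20.1 and 13.4 TPM, with Irf4, Cebpe and Spic under 1 TPM in both libraries. Of 20 complement genes 15 were detected, led by C1qbp, a mitochondrial protein that can bind C1q, at 133 ± 15.9 TPM (SD, n = 2). Cfb, Cfi and Vsig4 were under 1 TPM in both libraries. Among 21 phagocytic and lectin receptors and their bridging proteins, 13 were detected and Mrc1 ranked below Mrc2, its relative on fibroblasts, which had 92.0 ± 14.3 TPM (SD, n = 2).

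Genes of other cell types that use some of the 10 genes were measured too, again beside 62.8% of protein-coding genes detected. For osteoclasts, which also need Csf1r, 6 of 11 listed genes were detected, with a summed level of 122 and 126 TPM in replicates 1 and 2. The highest were Ctsk, Nfatc1, Acp5 and Mmp9 at 49.4 ± 7.42, 35.3 ± 8.01, 17.5 ± 0.742 and 15.3 ± 1.82 TPM (SD, n = 2). Calcr, Dcstamp, Ocstamp and Atp6v0d2 were under 1 TPM in both libraries. Lymphatic endothelium, which also makes Mrc1, had 6 of 6 genes detected and summed to 70.7 and 62.5 TPM in replicates 1 and 2, with 3 of 6 higher and 3 of 6 lower in replicate 2. Pdpn, which other cells also make, had 28.5 and 19.7 TPM, a larger difference than that of the sum. Genes of keratinocytes, a known source of Il34, summed to 1433 and 1008 TPM in replicates 1 and 2. All 7 were lower in replicate 2, against 46.9% of the 15055 genes whose mean reached 1 TPM. Their median log2 ratio was -0.49, from -0.94 for Krt15 to -0.02 for Trp63. The log2 ratio of Il34 was -0.20 in deposited TPM but only -0.06 by posterior mean TPM. Monocyte and neutrophil genes, in which Spi1 and Tyrobp are also active, summed to 48.9 and 75.7 TPM and were detected for 7 of 12 genes. They were led by S100a8, S100a9, Prtn3 and Ly6c1 at means of 19.0, 12.4, 11.4 and 6.57 TPM, with Ltf and Ly6g under 1 TPM in both libraries. Of the 8 with a mean of at least 1 TPM, 5 differed by more than 1.5-fold, against 11.6% of all genes, with 5 higher and 3 lower in replicate 2. Their median log2 ratio was 0.88, beside 0.50 for Tyrobp and -0.07 for Spi1. The 5 higher were Camp, Mpo, Ngp, S100a8 and Prtn3, at 2.42, 1.56, 1.32, 1.03 and 0.72. The 3 lower were Ccr2, S100a9 and Ly6c1, at -0.13, -0.17 and -0.35. The mast cell genes Cpa3, Cma1 and Tpsb2 had 62.6 ± 8.46, 58.1 ± 6.55 and 26.0 ± 0.919 TPM (SD, n = 2). The lymphoid gene Cd79b had 2.27 and 2.11 TPM in replicates 1 and 2. By contrast Fcer1a, a receptor chain of mast cells named after its values were seen, had 0.11 and 0.07 TPM in replicates 1 and 2. In all, 4 of the 13 lymphoid and mast cell genes were detected. Under 1 TPM in both libraries were 8 of the 13, beside 7622 of 21474 protein-coding genes. Erythroid genes were detected for 6 of 7 and stroma genes for 6 of 6, with medians of 22.0 and 384 TPM. The part of these cells in the levels and ratios of the 10 genes was not tested.

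**Figure D5:**
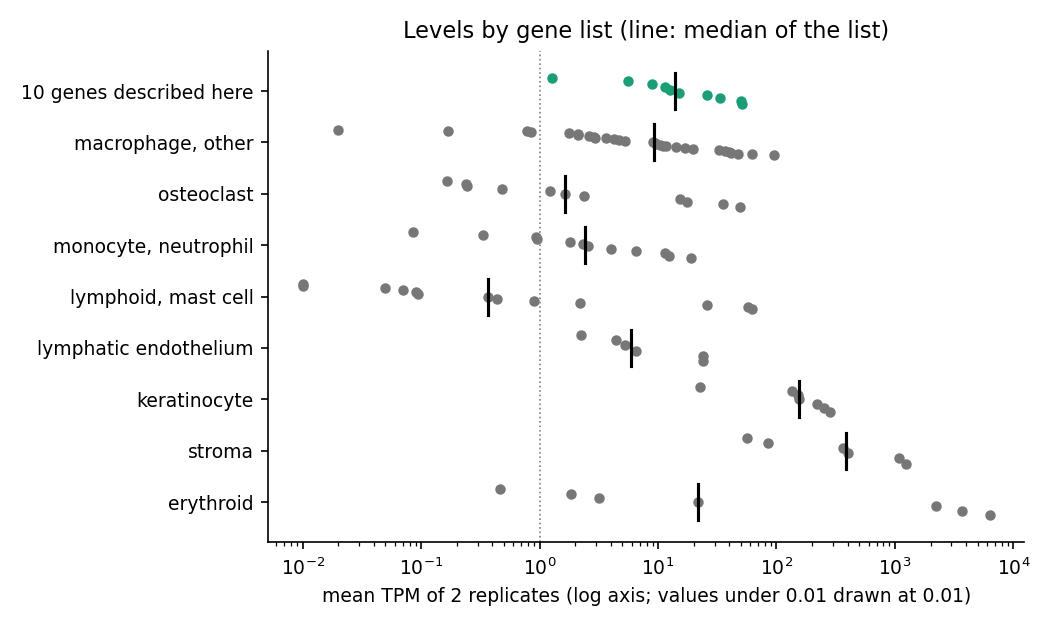
Mean TPM over both replicates (log axis) of each gene in the list of 10 and in 8 other lists, with the median of the list as a black line and 1 TPM dotted; means under 0.01 are drawn at 0.01. The 10 genes have a median of 13.9 TPM, the other macrophage genes 9.25 TPM, the keratinocyte genes 155 TPM and the stroma genes 384 TPM.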

How the data were processed

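Polyadenylated RNA of E14.5 limb was measured in 2 libraries, 1 group. Per the text files deposited with the tables, the authors made gene and transcript tables on mm10 with GENCODE M4. Which program was used is not given in the sources at hand. Per the file headers, they hold expected counts (estimated reads), TPM, FPKM, credibility bounds of TPM (a signal-like value in TPM) and transcript shares in percent. The deposited values were used as they stand. Genes and transcripts were joined by stable identifier to GENCODE M21 (884 gene rows unmatched). Of the 27 transcript models of the 10 genes, 25 had the same length in M21. Rows of spike-ins (2.39% and 2.36% of counts), phiX and tRNAs stayed out of CPM and fits.

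The 10 genes, the lists and the pairs were chosen with earlier results of these data known. Named genes are the 10, those in pairs, the 4 highest of most lists, and those under 1 TPM in each library if at most 5 of a list are. Named transcripts have a share of at least 10% in either library. In the complement, phagocytic, lymphatic and keratinocyte lists the 4 highest were not all named, so the names there are a selection. No erythroid or stroma gene was named. Other Csf1 models, and list genes given with a log2 library ratio, were named after their values were seen. Pair differences came from an intercept-only limma 3.58.1 fit (eBayes with trend, 5.37 degrees of freedom) to log2(TPM + 1), over genes whose mean reached 1 TPM. The fit was tested on simulated data in which genes varied independently, so errors shared by the genes of a library were not covered. An added alternative took differences within each library, with an interval from Student's distribution. TMM (edgeR 4.0.16) and size factors (DESeq2 1.42.0) on rounded counts served as alternatives for library ratios. No p-value was computed, since 1 group of 2 allows no comparison of conditions.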

Additional observations from a re-analysis of the deposited data

How the results depend on the processing

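Both genes of a pair come from the same library, and a fit with the library as a replicate block, chosen after seeing the data, left 7 of 19 pair differences beyond 0 where the limma fit had 12: 6 calls were lost and 1, C1qa over C1qc, was gained. With 1 degree of freedom these blocked intervals depend on how close the differences of the 2 libraries happen to lie. Without the block, 12 left out 0 with a pseudocount of 0.1, with no filter on low values and with posterior mean TPM, and 16 did in CPM. Intervals widened for the number of pairs left 7. In CPM 2 differences had the other sign and passed: C1qa over Csf1r at -1.34 and Spi1 over Mrc1 at -1.61 on the log2 scale, values that also hold the lengths of the genes. The median of the 10 levels was 15.7 TPM when FPKM were scaled to nuclear genes. That scaling removes the mitochondrial, spike-in, phiX and tRNA rows from the total. With either replicate left out the median was 13.2 to 14.6 TPM. Leaving out a replicate leaves 1 library and no interval, and no library ratio. Genes with at least 2 transcripts at 10% or more numbered 4 to 6 with either replicate left out. The share of all genes past 1.5-fold was 22.6% with no filter on low values. All 10 genes had at least 10 counts in both libraries, and 9 reached 5 TPM in both. By posterior mean TPM Il34 had 1.65 TPM, and Il34-201 held 41.5% of it in place of 57.2%; the cause was not tested. With under 1 CPM in both libraries, Il34 is the least certain of the 10.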
